A study of Drosophila melanogaster with 33 samples.

Results

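Circular RNAs (circRNAs) that could not be given to exactly 1 host gene were examined in fly heads during aging. The table of the series lists 7582 circRNAs, each with a host field, and 719 of them carried the entry intergenic (472), ambiguous (217) or no_single_host (30) in that field and spanned at least 50 bases between their genomic ends. Measured levels played no part in that choice. A further 183 circles of these classes were shorter, the longest of them 49 bases, and were left out. The 6479 circles of at least 50 bases with a single host gene served for comparison. Heads came from wild-type CantonS (CS) flies kept at 25 °C in cycles of light and dark, males and females apart in the libraries, as young flies mated for 3 days (called day 0) and at days 10, 20, 30, 40 and 50. The 33 libraries of ribosome-depleted total RNA, 15 male and 18 female, were split by sex and age into 12 groups of 2 or 3 samples. Each sample pooled the heads of many flies, and replicates are biological replicates by their labels. Back-splice reads of female replicates 1 and 2 of day 50 were the same in all 310 members detected there, so their mean counted as 1 sample and 32 samples entered the circRNA analysis.

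A circRNA forms when a splice donor is joined backwards to an upstream acceptor, so that 1 or more exons close into a ring. Rings have no free ends and no poly(A) tail, and they are degraded slowly. They are therefore known to build up in neural tissue, whose cells do not divide. In sequencing they are recognised only by reads across the back-splice junction. A circle is usually assigned to the gene whose exons it contains. Circles over overlapping gene models (ambiguous), circles whose ends lie in different genes (no_single_host) and circles with no gene on their own strand (intergenic) are commonly set aside.

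The 3 classes differed in what lay under them. The deposited table gives no strand for a circle, so the strand was read from the splice letters: AG before the first base and GT after the last base on one strand. All 714 members on assembled chromosome arms had these letters, which the search requires. With that strand, 216 of 217 ambiguous circles and 30 of 30 no_single_host circles overlapped at least 2 annotated genes on their own strand. Both ends of 158 ambiguous circles (72.8%) and 26 no_single_host circles (86.7%) coincided with annotated exon ends, beside 75.5% of single-host circles. Intergenic circles were different. Of the 467 that could be placed, 465 had no gene on their own strand, and 465 had neither end at an annotated exon end. Few lay outside genes on both strands: 426 (91.2%) overlapped a gene on the opposite strand and 412 (88.2%) an exon of it, while 39 overlapped no gene on either strand. Among single-host circles 9.14% overlapped an exon of a gene on the opposite strand. The paper regards most circles it found before filtering as likely artifacts of splicing or sequencing, since many touch no annotated splice junction and are rare. Whether the intergenic entries are such artifacts was not tested here.

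Letters around the junctions are shown for 5 circles. In each line below, the 24 bases around the first base of a circle and the 24 bases around its last base are given on the circle's strand, 5′ to 3′, with 12 bases on each side of the junction and the AG and GT in capitals (dm6 positions, bases read from the RefSeq Release 6 assembly).
Ank2 and CG44195, ambiguous, chr3L:7662471-7663324, minus strand, start: tatttattgcAGaaacccttcacg
the same circle, end: cggcggcaaaagGTaacataccat
CecA1 to CecA2, no_single_host, chr3R:30211108-30212336, plus strand, start: ttcttttcgaAGgaacgcgttggt
the same circle, end: ggcaagaaaatcGTaagtccattc
no annotated gene, intergenic, chr3L:22546931-22547938, minus strand, start: cttcacttgcAGgtaagtggcacc
the same circle, end: aaggatgtctaaGTgagttaacaa
opposite ninaE, intergenic, chr3R:19886301-19886520, plus strand, start: ttttttgttgAGtttttttttgtc
the same circle, end: gttgttgttgctGTtctggttgtt
opposite Yp1, intergenic, chrX:10055355-10055434, minus strand, start: ttaaatgtttAGgtaatctcaaga
the same circle, end: gtttgttgtttgGTagttgccatt
They were chosen because they are among the most abundant of their class and stand for the kinds of locus described below. The circle of no annotated gene and the CecA circle end in the extended donor GTNAGT (N is any base), which is common at fly introns, and the circles opposite ninaE and Yp1 and the Ank2 circle do not.

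The extended donor GTNAGT, searched only at the end of each circle and on its own strand, followed 54.4% of ambiguous, 56.7% of no_single_host and 51.3% of single-host circles. It followed 6.64% of intergenic circles (31 of 467). Within the intergenic class it was present in 18 of the 39 circles with no gene on either strand (46.2%), in 3 of 14 inside an intron of a gene on the opposite strand and in 9 of 412 opposite an annotated exon (2.18%). Single-host circles with both ends at annotated exon ends had it in 60.4%, and those with neither end there in 5.55%. The pyrimidine share of the 15 bases before the AG had a median of 53.3% in intergenic circles opposite an exon, against 73.3% in single-host circles. Among circles under 500 bases the median was 53.3% in intergenic and 60% in single-host circles, and GTNAGT followed 0.559% of intergenic and 27.3% of single-host circles. These shares are descriptions of letters and do not show that a site is or is not used.

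Repeated letters were also counted. When the bases around the first and last position of a circle are the same, the exact junction cannot be placed and the ends share a short direct repeat. At least 5 shared letters were present in 24.4% of intergenic, 7.37% of ambiguous and 0 of 30 no_single_host circles, beside 8.97% of single-host circles. Among circles under 500 bases the shares were 30.7% of 358 intergenic and 27.4% of 911 single-host circles. An example is the circle opposite CG4962 (intergenic, chr3L:16295134-16295226, plus strand), printed with the shared letters in capitals.
opposite CG4962, start: tggtaggtGGAGGTGGagtgcaga
opposite CG4962, end: ttggcataGGAGGTGGccaccggg
Its 8 shared letters stand at the same offset at both ends.

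Intergenic circles were short and no_single_host circles long. The median span was 230.5 bases in the intergenic class, with quartiles of 128 and 485.5 bases. It was 2125 bases in the ambiguous class (910 and 4948) and 6129 bases in the no_single_host class (3093 and 10843), beside 2176 bases in single-host circles (854 and 6150). Spans under 500 bases were found in 75.8% of intergenic, 12.0% of ambiguous and 0 of 30 no_single_host circles, and in 14.1% of single-host circles. The shortest no_single_host circle spanned 903 bases and the longest 69644 bases. The span distributions of ambiguous and single-host circles lie on top of each other over most of their range, as plotted by class.

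**Figure D1:**
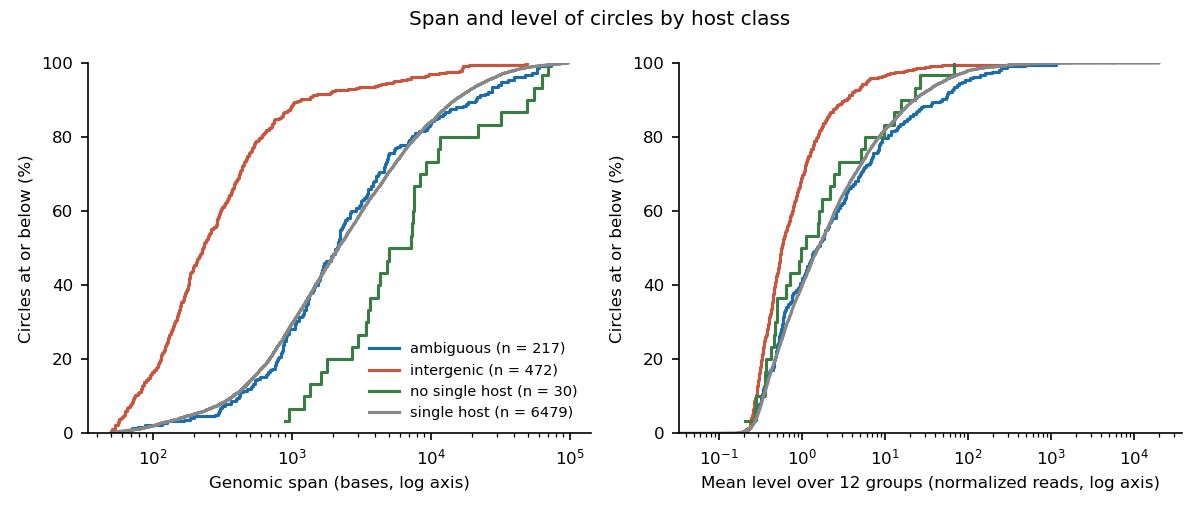
Cumulative share of circles (y, %) by genomic span in bases (left, log axis) and by mean level over the 12 groups in normalized reads (right, log axis), 1 line per host class with its number of circles. The intergenic line lies left of the others in both panels (median span 230.5 bases, median level 0.569 normalized reads), and the ambiguous line follows the single-host line.

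Levels are given in normalized reads, that is back-splice reads divided by 1 size factor per library, and the mean over the 12 groups is used for each circle. The median level was 1.51 normalized reads in ambiguous circles (quartiles 0.526 and 7.11), 0.569 in intergenic circles (0.356 and 1.23) and 1.04 in no_single_host circles (0.464 and 4.52). It was 1.57 in single-host circles (0.566 and 5.99). A mean of at least 10 normalized reads was reached by 20.3% of ambiguous, 3.39% of intergenic and 16.7% of no_single_host circles, and by 18.1% of single-host circles. The median circle was detected in 13 of 32 samples in the ambiguous class, in 6 in the intergenic class and in 9.5 in the no_single_host class, against 14 for single-host circles. Among intergenic circles 12 were detected in males only and 43 in females only. These counts rest on 15 male and 17 female samples of unequal depth.

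Recovered circRNA reads per library were 22475 to 249768 over the 32 libraries other than male replicate 1 of day 20, and female replicate 2 of day 0 was the shallowest. Head markers were present in every library (ninaE 399321 to 1241750 and elav 13075 to 23510 normalized linear reads). The lowest values were 2.20 for the antennal gene Obp83a and 2.61 for the muscle gene TpnC47D. Muscle and fat body markers varied widely between libraries: TpnC47D reached 4653, Mhc ranged from 60083 to 676353 and takeout (to) from 167 to 73049. What this means for the age contrasts was not tested. Of the genes that heads should lack, SP reached at most 2.59, Mst84Dc 39.1, osk 27.2 and bam 41.9 normalized reads. The germ-line gene vas stood at 13.5 to 143 and Acp36DE at 234 to 426 in all libraries. Over the 3 classes the male samples summed to 3145 and 4262 reads at day 10 and to 5834 and 7329 at day 20, the widest gaps between samples of a group.

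Summed over each class, ambiguous circles gained more reads with age than the other classes. At day 0, 10, 20, 30, 40 and 50 they summed to means of 1376, 2471, 4868, 6136, 7032 and 7933 normalized reads in males and to 1280, 2784, 4226, 5217, 6368 and 7234 in females. At day 50 the 2 male samples had 7892 and 7973 reads, against 1347 to 1429 in the 3 male samples of day 0, a ratio of means of 5.76. The female values were 7230 and 7238 at day 50, against 1189 to 1336 at day 0, a ratio of 5.65. Samples of the 2 ages did not overlap in either sex. Heads are mixed tissue, so more cells of a type and more RNA per cell cannot be told apart here. Without the most abundant member, which lies in Ank2, these ratios were 4.56 in males and 4.42 in females.

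Intergenic circles summed to 2015 and 2205 reads in males of day 50, against 1016 to 1153 at day 0 (ratio of means 1.93). Females had 1820 and 2081 reads at day 50, against 931 to 1125 at day 0 (ratio 1.86). No_single_host circles had 217 ± 16.5 reads in males of day 50 (SD, n = 2), against 203 ± 6.40 at day 0 (n = 3), and with 236 ± 58.2 in females of day 50 (n = 2), against 218 ± 22.7 at day 0 (n = 3). The 2 ages overlapped in both sexes in that class. Single-host circles of the same libraries had ratios of 3.51 in males and 3.46 in females. No p is given for these sums, because the members were summed as a class.

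**Figure D2:**
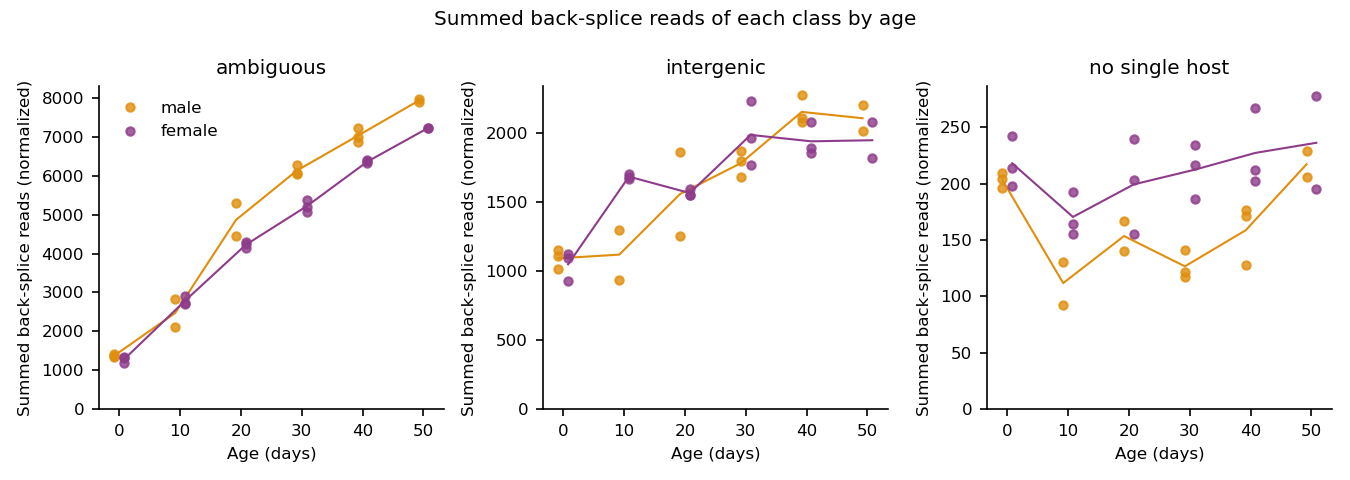
Summed normalized back-splice reads of each class (y) by age in days (x), 1 point per sample and lines through the group means, males and females in separate colours. Ambiguous circles reach 7933 reads in males and 7234 in females at day 50, while the no_single_host sums at day 50 overlap those of day 0.

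As a share of all circRNA reads the classes moved in different directions. Ambiguous circles made up 4.42% of the reads of males at day 50, against 2.71% at day 0, and 4.31% in females, against 2.65%. Intergenic circles made up 1.18% in males of day 50, against 2.15% at day 0, and 1.16% in females, against 2.17%. No_single_host circles made up 0.121% in males of day 50, against 0.399% at day 0, and 0.141% in females, against 0.451%. In none of these 6 comparisons did the samples of day 50 overlap those of day 0. The 3 classes together held 5.72% in males of day 50, against 5.26% at day 0, and 5.61% in females, against 5.26%.

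Single circles were tested with limma on log2(normalized reads + 1), with Benjamini-Hochberg adjustment over all 2775 circRNAs that passed the filter on level, and a call needed an adjusted p below 0.05 together with a log2 fold change of more than 0.5 either way. The filter kept circles whose mean reached 1 normalized read in each of the 12 groups and circles with 10 or more in any one sample. It kept 172 of the 719 members: 91 ambiguous, 70 intergenic and 11 no_single_host. Of these 172, 82 had a mean of at least 1 in every group (57, 20 and 5), and the others entered through high values in 1 or more samples, so they were bound to vary.

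In males of day 50 against day 0, 58 ambiguous circles rose and 1 fell, 22 intergenic circles rose and 11 fell, and 2 no_single_host circles rose and 3 fell. The background over all tested circRNAs was 58.5% called higher and 3.5% called lower. In females 63 ambiguous circles rose and 2 fell, 26 intergenic circles rose and 10 fell, and 4 no_single_host circles rose and 2 fell, against a background of 59.8% higher and 3.64% lower. The share called higher was thus 63.7% in males and 69.2% in females for ambiguous circles, near the background. For intergenic circles it was 31.4% in males and 37.1% in females, and their share called lower was 15.7% and 14.3%. Single-host circles had 59.2% and 60.2% called higher and 3.15% and 3.34% lower. The tested circles of these 2 classes differed in level, with medians of 4.38 and 8.42 normalized reads. A mean of 1 in every group was reached by 20 of 70 intergenic and 1528 of 2603 single-host circles. What part of the gap in calls goes with level was not tested. Members rose in both sexes in 52 ambiguous, 16 intergenic and 2 no_single_host cases, fell in both in 1, 8 and 2 cases, and in no case rose in one sex and fell in the other. Calls in both sexes were not counted over all circRNAs, so these counts are not read as particular to the members.

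The median log2 fold change of the members that passed the filter was 1.80 in males and 2.06 in females for ambiguous circles, 0.37 and 0.99 for intergenic circles and 0.66 and 0.64 for no_single_host circles. Over all tested circRNAs it was 1.80 in males and 1.85 in females. With no filter, when all 719 members were tested, 117 rose and 31 fell in males (background 26.5% and 2.21%) and 124 rose and 25 fell in females (26.8% and 1.89%). With circles that were at 0 in all samples of 1 age set to the bound of 3 reads over that group, the medians became 1.77 and 1.94, 0.22 and 0.99, and 0.21 and 0.64. The increase depends on the scale. When values were set to the total of circRNA reads instead, the median over all tested circRNAs was 0.44 in males and 0.64 in females. Members then rose in 33 and fell in 29 cases in males, against 82 and 15 on the authors' scale, and rose in 36 and fell in 30 cases in females, against 93 and 14. The background on that scale was 16.1% higher and 12.3% lower in males and 21.1% and 12% in females, beside 19.2% and 16.9% of the members in males and 20.9% and 17.4% in females. By class, the median on that scale was 0.54 in males and 0.68 in females for ambiguous circles, -0.09 and -0.05 for intergenic circles and -0.35 and -0.05 for no_single_host circles.

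**Figure D3:**
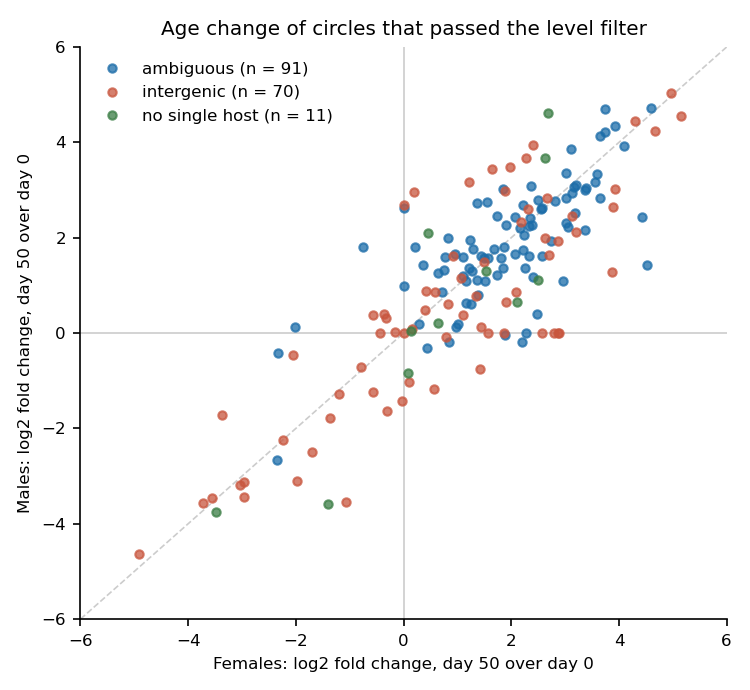
Log2 fold change of day 50 over day 0 in males (y) and in females (x) for the 172 members that passed the filter on level, 1 point per circle, coloured by class, with the line of equal change dashed. Most ambiguous circles lie in the upper right, intergenic circles are spread over both corners, and the intergenic points at 0 on the male axis include the circles opposite Yp1.

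Shorter intervals were tested as well. In males of day 10 against day 0, 27 members rose and 10 fell (background 17.1% and 5.59%), and in females 56 rose and 12 fell (background 29% and 5.12%). Scaled to total circRNA reads, 14 rose and 19 fell in males (background 12.6% and 9.37%) and 38 rose and 19 fell in females (19.6% and 10.1%). Without male replicate 3 of day 10 the males had 15 that rose. With no filter, 17 rose and 21 fell in males (background 5.49% and 2.25%), and 53 rose and 25 fell in females (10% and 2.29%). From day 10 to day 50, 59 members rose and 2 fell in males (36.8% and 0.324%) and 45 rose and 5 fell in females (31.9% and 0.613%). Scaled to total circRNA reads, 9 rose and 8 fell in males (background 2.56% and 3.03%) and 12 rose and 11 fell in females (3.64% and 3.24%). Without male replicate 1 of day 10, 35 rose and 1 fell in males, and 1 fell without either male sample of day 50. Without female replicate 3 of day 50, 2 fell in females. With no filter, 72 rose and 3 fell in males (background 13.7% and 0.222%), and 58 rose and 4 fell in females (12.9% and 0.306%). Between males and females, the change over these 50 days was called different for 0 members (background 0% in either direction, and 0% higher and 0.0721% lower when scaled to total circRNA reads) by limma, with 14 of 172 at an unadjusted p under 0.05. EdgeR and DESeq2, run on recovered reads, each called 1, the circle over CG6891 and CR6900 described below. A share over all circRNAs was not counted for either tool, so this call has no background beside it.

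The most abundant ambiguous circles lay in long genes overlapped by other gene models on the same strand. The most abundant member of all lay in Ank2, which encodes an ankyrin that ties membrane proteins to the spectrin skeleton at axons and synapses, where a shorter model, CG44195, shares its exons (chr3L:7662471-7663324, 854 bases, both ends at annotated exon ends). It had 2038 and 1973 normalized reads in males of day 50, against 73.4, 89.7 and 65.3 at day 0. Females had 1925 and 1929 reads at day 50, against 95.2, 68.4 and 75.7 at day 0. The groups were far apart, and the means climbed at every age: 76.1, 523, 1184, 1618, 1870 and 2006 reads in males and 79.7, 552, 1043, 1300, 1712 and 1927 in females at day 0, 10, 20, 30, 40 and 50. The log2 fold change was 4.71 ± 0.12 in males (SE, limma adjusted p = 1.1e-30) and 4.59 ± 0.12 in females (adjusted p = 3.1e-30).

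Other circles of the Ank2 locus were less abundant. The circle chr3L:7661981-7662890 had 471 reads in males of day 50, against 26.2 at day 0, and 355 in females, against 28.0. The circle chr3L:7662471-7662890, which shares 1 end with each of the other 2, had 298 reads in males, against 19.2, and 351 in females, against 20.4. All 3 rose in both sexes, by 3.64 to 4.71 on the log2 scale. A locus is here a run of members with overlapping spans on the same strand, and other members over the same genes can lie outside it. Of the 8 ambiguous circles over Ank2 and CG44195, 5 formed this locus. These 5 summed to 2778 ± 36.9 reads in males of day 50, against 121 ± 19.0 at day 0, and to 2634 ± 26.0 in females, against 129 ± 7.36 (SD, n = 2 against 3). Linear Ank2 had 122110 normalized reads in males of day 50, against 130794 at day 0, and 90654 in females, against 118233, with log2 fold changes of -0.10 and -0.38 that were not called. Linear CG44195 had a log2 fold change of -0.64 in males, not called, and fell by 1.02 in females.

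The locus of Kdm4B, a histone demethylase, sequoia (seq), a zinc-finger protein of developing neurons, and CG17724 held 12 ambiguous circles on chromosome arm 2R. Of these, 9 passed the filter. The highest, chr2R:13180990-13183234 (2245 bases), had 853 and 847 reads in males of day 50, against 164, 174 and 201 at day 0, and 755 and 763 in females, against 138, 168 and 148. It rose by 2.24 ± 0.18 in males and 2.33 ± 0.18 in females. A neighbour, chr2R:13185784-13187908, had 512 reads in males of day 50, against 60.5 at day 0, and 450 in females, against 52.1. The circle chr2R:13180990-13183212 shares 1 genomic end with the highest one, and only 1 of its ends is annotated. It had 276 reads in males of day 50, against 50.6 at day 0, and 170 in females, against 50.8. Its female change had the opposite sign on the scale of total circRNA reads (-0.050).

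The same locus held the only ambiguous circle that fell in both sexes. This circle, chr2R:13180990-13185175 (4186 bases), shares 1 genomic end with the highest circle and is longer. It had 0 and 0 reads in males of day 50, against 8.15, 4.67 and 3.84 at day 0. Females had 1.13 and 0 reads at day 50, against 4.80, 4.41 and 12.1 at day 0. The values were low and did not overlap, and in males the change was at least 4.42-fold lower against a floor of 3 reads over the group (limma adjusted p = 0.0082). The female call was lost without female replicate 3 of day 0 (limma adjusted p = 0.071) or of day 50 (adjusted p = 0.157). This circle passed the filter only through female replicate 3 of day 0 (12.1 reads), so the filter favoured its fall in females.

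The locus with most members was sif (still life), a Rac exchange factor of synapses, overlapped by the models CG46320 and CG44521. Its 38 circles spanned 369 to 58585 bases. Of the 21 tested, 13 rose in males and 14 in females, with none falling. These shares were near the background of 58.5% higher and 3.5% lower in males and 59.8% and 3.64% in females. The 38 circles summed to 1193 ± 56.0 reads in males of day 50, against 218 ± 32.2 at day 0, and to 909 ± 4.21 in females, against 163 ± 30.0. The highest, chr3L:5703925-5706573, had 448 and 387 reads in males of day 50, against 66.8, 71.0 and 61.5 at day 0. Females had 369 and 395 reads, against 76.0, 46.3 and 71.9. It rose by 2.63 ± 0.21 in males and 2.57 ± 0.21 in females.

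At stoned, a dicistronic locus whose stnA and stnB products act in synaptic vesicle recycling, 8 circles summed to 236 ± 3.04 reads in males of day 50, against 102 ± 10.4 at day 0, and to 279 ± 22.6 in females, against 113 ± 12.3. The highest, chrX:22985305-22986568, had 157 and 142 reads in males of day 50, against 74.2, 73.8 and 60.5 at day 0, and 171 and 205 in females, against 89.6, 70.6 and 92.3. It rose by 1.10 ± 0.20 in males and 1.16 ± 0.20 in females, less than the median circRNA, and on the scale of total circRNA reads its sign turned (-0.70 and -0.63). Its level was flat from day 30 on, at 173, 160 and 150 reads in males and 184, 182 and 188 in females at day 30, 40 and 50.

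The 6 circles at skywalker (sky), a regulator of synaptic vesicle trafficking, summed to 350 ± 0.494 reads in males of day 50, against 129 ± 11.7 at day 0, and to 305 ± 36.0 in females, against 124 ± 9.44. Of its 2 main circles, chr2L:20903016-20903559 rose by 2.40 in males and 2.35 in females. The other, chr2L:20881987-20882464, rose by 0.85 and 0.72, and its sign turned on the scale of total circRNA reads (-0.95 and -1.07). The 20 circles at rugose (rg), a kinase-anchoring protein, overlapped by CG15465, summed to 83.4 reads in males of day 50, against 11.6 at day 0, and to 88.4 in females, against 16.4. Of the 6 that passed the filter, 4 rose in males and none fell (background 58.5% and 3.5%). In females 4 rose and 1 fell (59.8% and 3.64%). The circle that fell, chrX:5233412-5243486, had a mean of 0 reads in females of day 50, against 5.19 at day 0. Their highest, chrX:5239426-5240382, had 35.7 and 28.1 reads in males of day 50, against 3.26, 0 and 0 at day 0. It had 37.2 and 19.6 in females, against 0, 0 and 5.30. At Pif1A and Pif1B, chr3R:8793104-8798046 had 26.0 reads in males of day 50, against 10.7 at day 0, and 40.5 in females, against 18.5, and rose in both sexes. On the scale of total circRNA reads its sign turned (-0.51 and -0.63). The male call was lost without male replicate 3 of day 0 (limma adjusted p = 0.083) or replicate 2 of day 50 (adjusted p = 0.201). The female call was lost without replicate 1 or 3 of day 0 or replicate 3 of day 50 (adjusted p of 0.065, 0.095 and 0.059).

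The Tpst locus, which encodes a tyrosylprotein sulfotransferase, had more reads in females. Its 10 circles summed to 25.6 ± 3.52 reads in males of day 50, against 8.57 ± 2.51 at day 0, and to 102 ± 1.83 in females, against 14.7 ± 8.99. The circle chrX:13584861-13586092 had 1.93 and 1.48 reads in males of day 50 and 28.2 and 32.6 in females of day 50, while at day 0 it had 0 reads in all 3 male samples and 0, 0 and 1.51 in the female samples. It was called higher in females and not in males, and its change was not called different between the sexes by limma with a pseudocount of 1 (male minus female -3.10 ± 0.94, adjusted p = 0.41). It was called with a pseudocount of 5 (-2.27, limma adjusted p = 0.020). A circle over CG13004 and CG46306, chrX:16834612-16835692, was at 0 in all 6 samples of day 0. It had 22.2 and 28.1 reads in males of day 50, at least 28.0-fold higher, and 10.1 and 15.2 in females of day 50, at least 12.8-fold higher.

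Intergenic circles lay opposite the most abundant transcripts of the head. Genes were ranked by linear reads per kilobase of exon among 12572 genes with a mean of at least 10 reads. The gene on the opposite strand had a median rank at percentile 98.3 over 416 intergenic circles with a ranked gene, with quartiles of 94.3 and 99.8. In 336 of them (80.8%) it was in the top 10% and in 184 (44.2%) in the top 1%. Where a circle overlapped several genes, the one with the most linear reads per kilobase was taken. Hosts of single-host circles had a median percentile of 85.0, with 4.49% in the top 1%. On the opposite strand, the 684 single-host circles with a gene there had a median percentile of 40.9, with 4.24% in the top 1%. The genes under ambiguous circles had a median percentile of 52.6. Nearly all of these circles lie over overlapping gene models. How linear reads shared by such models were counted was not stated, so their rank is uncertain. Circles and opposite genes come from the same libraries, and genes with several circles count several times. The overlaps fell on 242 genes, led by apolpp (28 circles), ninaE (23), Lk6 (15), and Yp1, Yp2, blot and the noncoding RNA noe (10 each). The circles opposite noe also lay opposite blot, which ranked at percentile 66.5, against 99.97 for noe.

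**Figure D4:**
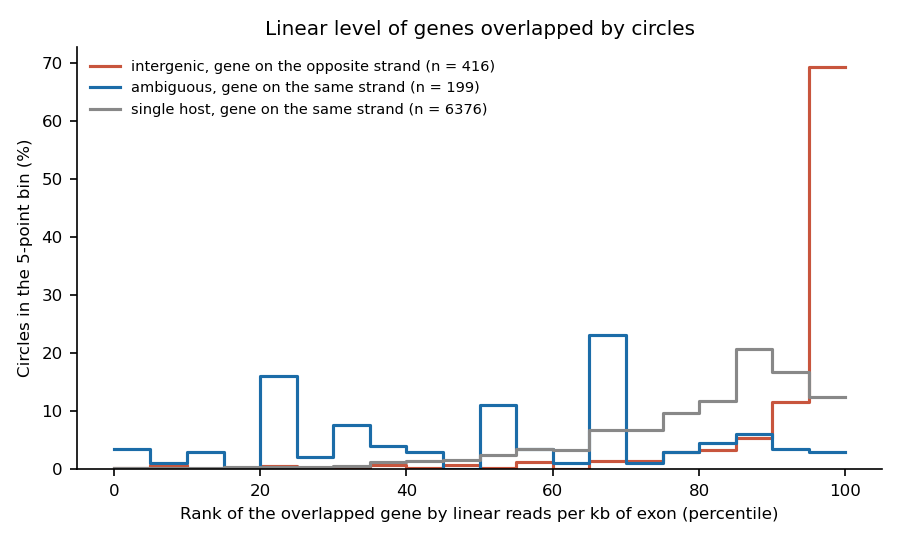
Share of circles (y, %) by the rank of the overlapped gene in linear reads per kilobase of exon (x, percentile of 12572 genes in bins of 5 points), for the gene opposite an intergenic circle and the gene on the same strand as an ambiguous or single-host circle. Most intergenic circles fall in the highest bin (median percentile 98.3), single-host circles peak lower (median 85.0) and ambiguous circles are spread out (median 52.6). The rank under ambiguous circles is uncertain, because it is not known how reads shared by overlapping gene models were counted.

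Seen from the genes, 15 of the 20 most abundant ones had an intergenic circle on the other strand, among them all of the first 5: ninaE, Yp2, Yp3, Yp1 and noe. Of the 126 genes in the top 1%, 48 had such a circle (38.1%), against 14 of 6286 genes below the median (0.223%) and 229 of all 12572 (1.82%). Back-splice reads of the circles were few next to the linear reads. A back-splice read must cross the junction, while linear reads come from the whole transcript, so the ratios below do not compare amounts of RNA. The paper likewise states that linear and circular levels are not directly comparable. The 23 circles opposite ninaE averaged 133 reads over the groups, or 146 per 1000000 linear reads of ninaE. On that scale the 10 opposite Yp1 amounted to 138 and the 28 opposite apolpp to 52.8. The yolk protein genes Yp2 and Yp3 had 17.4 and 3.35.

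The yolk protein genes give the plainest comparison between the sexes. They are expressed in the fat body of adult females and not of males. Linear Yp1 averaged 114 normalized reads in males of day 50, against 1021050 in females. The 10 circles opposite Yp1 were all detected in females, and 1 of them was detected in males, with a largest sum of 2.61 reads in any male sample against 261 in a female one. The 10 circles opposite Yp2 and the 3 opposite Yp3 were detected in 0 of 15 male samples. The circle chrX:10055355-10055434 (80 bases) had 178 and 87.0 reads in females of day 50, against 16.0, 11.0 and 22.7 at day 0. It rose by 2.89 ± 0.50 in females (limma adjusted p = 5.4e-06), beside a log2 fold change of 2.81 ± 0.74 in linear Yp1. In males it had 0 reads at both ages. The female mean was highest at day 30, with 16.6, 99.6, 120, 187, 117 and 133 reads at day 0, 10, 20, 30, 40 and 50. Linear Yp1 had 146843, 722894, 1589870, 1536940, 1052130 and 1021050 reads at the same ages. Male minus female, the change of this circle missed the threshold (-2.89 ± 0.71, limma adjusted p = 0.19) and passed it with a pseudocount of 5 (adjusted p = 0.00034) and with the identical female replicates kept apart (adjusted p = 0.033).

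Circles opposite ninaE, the gene of the main rhodopsin of the photoreceptors, were 57 to 761 bases long and lay on the plus strand between chr3R:19886273 and 19888136. Their sum was 152 ± 14.9 reads in males of day 50, against 60.1 ± 5.57 at day 0, and 134 ± 12.0 in females, against 76.0 ± 8.63 (SD, n = 2 against 3). The highest, chr3R:19886301-19886520, had 60.8 and 77.0 reads in males of day 50, against 19.6, 23.3 and 22.1 at day 0. Females had 53.0 and 38.1 reads, against 24.8, 24.3 and 21.2. It rose by 1.62 ± 0.40 in males and 0.91 ± 0.40 in females on the authors' scale, and on the scale of total circRNA reads its sign turned (-0.15 and -0.83). The female call lay at the threshold and was lost, for example, without replicate 3 of day 0 (limma adjusted p = 0.096) or replicate 3 of day 50 (adjusted p = 0.060). Unlike the Ank2 circle it did not climb steadily: the female mean was 107 reads at day 10 and 45.7 at day 20, and the male mean was 36.4 at day 10 and 21.7 at day 20. Linear ninaE rose by 1.06 in males and 1.15 in females.

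A circle opposite apolpp, the lipid carrier made in fat body, was called higher, as was its gene. The circle chr4:1070749-1070923 had 13.6 reads in males of day 50, against 2.21 at day 0, and 35.1 in females, against 4.43, and linear apolpp rose by 2.60 in males and 3.27 in females. The circle opposite eEF1alpha1, a translation factor (chr2R:11895058-11895114, 57 bases), had 14.5 and 20.7 reads in males of day 50, against 19.6, 12.1 and 18.3 at day 0, and 47.3 and 30.4 in females, against 31.2, 33.1 and 38.6. Its groups overlapped in both sexes and it was not called, while its linear gene rose by 0.66 in males and 1.00 in females. The circle opposite the noncoding RNA CR42862, chr3L:227118-227376, had 21.7 reads in males of day 50, against 35.0 at day 0, and 26.7 in females, against 46.3. It was not called, and the linear RNA fell by 0.60 in males and 0.70 in females.

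The intergenic circles that were called lower in both sexes and had 0 reads in every sample of day 50 lay opposite CG4962, Nplp3 and CG8736. These circles reached the 10 reads of the filter only in samples of day 0, so the filter favoured a lower call. The circle opposite CG4962 printed above had 0 and 0 reads in males of day 50, against 29.3, 27.1 and 17.3 at day 0, and 0 and 0 in females, against 25.6, 22.1 and 43.9. That is at least 19.6-fold lower in males and 18.7-fold lower in females. At day 10 both male samples had 0 reads and the female samples had 3.95, 0 and 0, and reads of 2.96, 3.48 and 2.37 were seen in single samples of males of day 30, males of day 40 and females of day 40. Linear CG4962 fell by 5.82 in males and 5.09 in females on the log2 scale. The neuropeptide-like precursor Nplp3 had 2 such circles, of 84 and 137 bases, at 0 reads in every sample of day 50 and with means of 10.6 to 12.4 at day 0. Linear Nplp3 fell by 8.23 in males and 7.66 in females. All 6 circles opposite CG8736 were likewise at 0 at day 50, with sums of 36.7 reads in males and 33.3 in females at day 0, and linear CG8736 fell by 10.74 in males and fell by 11.42 in females. At noe, a highly expressed noncoding RNA of the nervous system, chr3L:17400881-17401022 had 6.67 reads in males of day 50, against 23.7 at day 0, and 6.66 in females, against 19.0, and linear noe fell by 1.25 and 1.22. The male call of this circle was lost without male replicate 2 of day 50 (limma adjusted p = 0.167). The female call was lost without replicate 1 or 2 of day 0 or replicate 3 of day 50 (adjusted p of 0.068, 0.103 and 0.192).

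Over the class, each of the 10 intergenic circles that fell in males and had a tested opposite gene lay opposite a gene that fell, and the same held for the 10 of females. Of those that rose, 7 of 14 in males and 13 of 20 in females lay opposite a gene that rose. Among the circles that were not called, 12 of 34 in males and 13 of 28 in females also lay opposite a gene that rose. Over all 58 circles with a tested opposite gene, that gene rose for 19 and fell for 24 in males and rose for 26 and fell for 22 in females. The background among 12685 linear genes was 19.9% higher and 22.5% lower in males and 21% and 24.9% in females. For the ambiguous class the gene of the same strand with the most linear reads per kilobase was taken. Of the circles that rose, 2 of 55 in males and 1 of 59 in females lay over a gene that rose, and 11 and 14 over a gene that fell. Among the circles not called, 4 of 30 in males and 5 of 25 in females lay over a gene that rose. Over all 86 ambiguous circles with a tested gene, that gene rose for 6 and fell for 16 in males and rose for 6 and fell for 21 in females. These are counts of circles, several of which share a gene. The circles opposite CG4962, Nplp3 and CG8736 described above reached the 10 reads of the filter only in samples of day 0. The filter thus favoured a lower call for them.

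Of the 39 intergenic circles that overlapped no gene, 9 passed the filter, and 7 rose in males and 6 in females, with none falling. Their sum was 677 reads in males of day 50, against 121 at day 0, and 612 in females, against 115. Most of it came from chr3L:22546931-22547938 (1008 bases), whose splice letters are printed above. It had 496 and 611 reads in males of day 50, against 117, 91.5 and 120 at day 0, and 425 and 526 in females, against 90.4, 128 and 97.6. It rose by 2.33 ± 0.17 in males (limma adjusted p = 3.1e-15) and 2.17 ± 0.17 in females (adjusted p = 2.2e-14). The nearest annotated gene, CG11404, lies 499 bases away on the other strand and had 228 linear reads in males of day 50, against 190 at day 0, and 155 in females, against 136. The 412 circles opposite an exon summed to 684 reads in males of day 50, against 585 at day 0, and to 876 in females, against 629, and of the 52 that passed the filter 11 rose and 10 fell in males and 15 rose and 10 fell in females, beside a background of 58.5% and 3.5% in males and 59.8% and 3.64% in females.

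A cluster of 8 intergenic circles lay on chromosome 4 (chr4:1279010-1296098) within copies of HeT-A and TART, retrotransposons that form fly telomeres. Their sum was 52.9 ± 5.69 reads in males of day 50, against 3.67 ± 3.91 at day 0, and 43.6 ± 5.93 in females, against 1.51 ± 2.62. The highest, chr4:1279023-1296098 (17076 bases), had 34.7 and 28.9 reads in males of day 50, against 1.63, 0.934 and 0 at day 0. Females had 25.9 and 22.8 reads, against 0, 0 and 0. It rose by 4.25 ± 0.56 in males and was at least 24.6-fold higher in females. HeT-A copies resemble each other, so reads may belong to other copies, and a span of 17076 bases in repeats need not be the size of the RNA.

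Further intergenic increases were large. The circle chr3R:23655008-23655862, in an intron of CG31145 on the opposite strand, was at 0 in all 6 samples of day 0. It had 33.8 and 30.3 reads in males of day 50, at least 35.7-fold higher, and 28.2 and 32.6 in females of day 50, at least 30.6-fold higher. It stayed at 0 at day 10 and had 12.1 reads in males and 7.55 in females at day 40. Linear CG31145 had log2 fold changes of -0.17 and -0.01. The circle chr3R:26185511-26186199, opposite CG31323 and CG31086, had 52.1 and 55.5 reads in males of day 50, against 1.63, 3.74 and 0 at day 0, and 40.6 and 29.4 in females, against 0, 0 and 0. It appeared earlier, with 25.9 reads in males and 14.0 in females at day 20, while linear CG31323 fell by 0.71 and 0.94.

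The most abundant intergenic circle lay on an unplaced scaffold assigned to chromosome Y in dm6 (positions 11185 to 27929, 16745 bases), whose sequence was not examined here. It was detected in females, which carry no Y chromosome. It had 664 and 665 reads in males of day 50, against 351, 381 and 354 at day 0, and 381 and 366 in females, against 320, 240 and 289. It rose by 0.87 ± 0.20 in males (limma adjusted p = 0.00028) and had a log2 fold change of 0.41 ± 0.20 in females (adjusted p = 0.066). On the scale of total circRNA reads both signs turned (-0.94 and -1.38). Its share of the intergenic reads was 31.6% in males of day 50, against 33.2% at day 0, and 19.2% in females, against 26.9%. Without it the ratios of the class sums, day 50 over day 0, were 1.98 in males and 2.06 in females.

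The no_single_host circles ran from an exon of one gene into another gene, and 11 of 30 could be tested. The circle with the largest rise in males joined the cecropin genes CecA1 and CecA2, antimicrobial peptides of the humoral immune response, across the pseudogene Cec-Psi1 (chr3R:30211108-30212336, 1229 bases, both ends at annotated exon ends). It had 77.2 and 96.2 reads in males of day 50, against 4.89, 6.54 and 0 at day 0. Females had 15.8 and 64.1 reads, against 10.4, 11.0 and 0, and 1 female sample of day 50 lay close to those of day 0. It rose by 4.62 ± 1.16 in males (limma adjusted p = 0.0017) and 2.68 ± 1.16 in females (adjusted p = 0.048). The female call lay at the threshold and was lost, among others, without replicate 3 of day 0 (limma adjusted p = 0.244) or replicate 3 of day 50 (adjusted p = 0.318). Linear CecA1 rose by 5.51 in males and 3.22 in females and CecA2 by 3.91 and 2.07. The cecropin genes are near copies of each other, so reads may be assigned to the wrong one.

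The circle over CG6891 and CR6900 (chrX:18781078-18785927, 4850 bases) fell in both sexes. It had 7.72 and 5.18 reads in males of day 50, against 85.6, 88.7 and 88.4 at day 0, and 27.0 and 31.5 in females, against 91.2, 72.8 and 72.6. The fall was 3.59 ± 0.44 in males (limma adjusted p = 4.8e-09) and 1.39 ± 0.44 in females (adjusted p = 0.0064). Both sexes stood at 13.2 reads at day 10. Male means were then 6.37, 6.58, 6.69 and 6.45 at day 20, 30, 40 and 50, and female means were 26.0, 26.8 and 29.3 at day 30, 40 and 50. Male minus female, its change was -2.20 ± 0.62 (limma adjusted p = 0.37), while edgeR with TMM factors gave -2.36 (adjusted p = 0.0135) and DESeq2 -2.35 (adjusted p = 0.0179). Linear CG6891 fell by 2.97 in males and 1.70 in females.

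**Figure D5:**
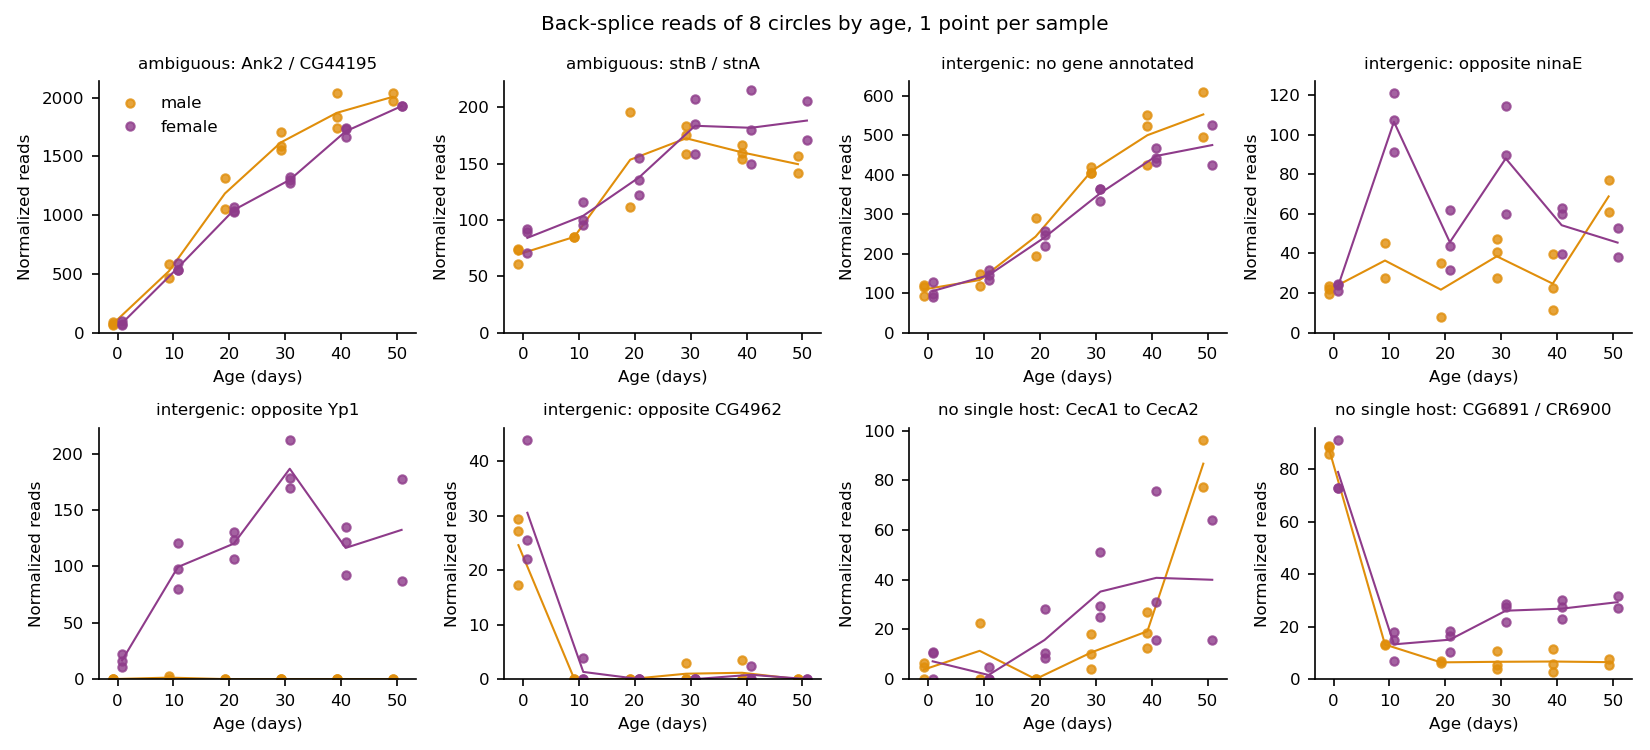
Normalized back-splice reads (y) of 8 circles by age in days (x), 1 point per sample and lines through the group means, males and females in separate colours, each panel with its own axis from 0. The Ank2 circle climbs at every age to 2006 reads in males and 1927 in females, the circle opposite Yp1 is near 0 in males, and the circle opposite CG4962 is at 0 at day 50.

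Other no_single_host circles changed less or were low. The most abundant, chr3L:19423379-19487106, spanned 63728 bases and 19 annotated genes. It had 40.5 and 28.1 reads in males of day 50, against 59.5, 57.9 and 66.3 at day 0, a fall of 0.84 ± 0.25, and 76.6 and 90.2 in females, against 80.8, 79.4 and 75.7, with a log2 fold change of 0.08 ± 0.25. The male call was lost without male replicate 2 of day 50 (-0.58, limma adjusted p = 0.111), and scaled to total circRNA reads the female change was -1.70. It shares 1 genomic end with chr3L:19477907-19487106, which had 11.8 reads in males of day 50, against 11.2 at day 0, and 19.9 in females, against 18.2, and was not called. The circle over cap-n-collar (cnc), the fly counterpart of the oxidative stress factor Nrf2, and CG4467 was at 0 in all samples of day 0. It had 8.68 and 15.5 reads in males of day 50, at least 13.5-fold higher, and 7.89 and 3.26 in females, at least 5.62-fold higher. A circle of 55776 bases, chr2R:22595642-22651417, had 0 and 0 reads in males of day 50, against 13.0, 12.1 and 12.5 at day 0, and 0 and 0 in females, against 14.4, 15.4 and 4.54. It reached the 10 reads of the filter only in samples of day 0, so the filter favoured a lower call. Circles over Hsc70-2 to pic and over Srg3 and CG3529 were called higher in females and not in males, a difference between the sexes that was itself not called. The female call over Srg3 and CG3529 was lost without replicate 1, 2 or 3 of day 0 (limma adjusted p of 0.063, 0.064 and 0.063) or replicate 3 of day 50 (adjusted p = 0.107). Those over Apl and Arts, CG43646 and CG43647, and aus and mod(mdg4) were not called in either sex.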

How the data were processed

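Ribosome-depleted total RNA from heads was sequenced with directional libraries. The authors aligned reads to dm6 with STAR, counted linear reads with featureCounts, found back-splice junctions with find_circ2 in unaligned reads, and deposited the reads of both kinds divided by 1 DESeq2 size factor per library, a normalized signal and not counts. No tool versions were given in the sources used here. A back-splice signal therefore depends on linear depth and on how many junctions a search of unaligned reads recovers. Values were whole multiples of 1 read within 0.01 in every column (100% of values). Recovered reads of 31 libraries entered edgeR and DESeq2. Male replicate 1 of day 20 did not, because its size factor is so close to 1 that the check for whole reads says little, and of the identical female replicates of day 50 only the first entered, with the mean of both scalings. Without male replicate 1 of day 20, recovered linear reads were 28848182 to 94953552 per library.

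Circles of at least 50 bases were tested with limma 3.58.1 (trend and robust, statmod 1.5.0, R 4.3.3) on log2(value + 1) with 12 group means, all groups in 1 fit so that they share 1 estimate of the spread. Fold changes on this scale understate the change of low circles. Linear genes with a mean of at least 10 (12685) were fitted the same way. Alternatives used edgeR 4.0.16 (quasi-likelihood) and DESeq2 1.42.0, other pseudocounts, no filter, values scaled to total circRNA reads, the identical female libraries kept apart, a replicate block and each replicate left out. The fits were tested on simulated data. Python 3.11.15, pandas 2.3.3, numpy 2.4.6 and matplotlib 3.10.9 were used.

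Strand came from splice letters, genes from the BDGP6.54 annotation and bases from RefSeq (Release 6, the dm6 assembly), and 5 intergenic circles on unplaced Y scaffolds were not matched to sequence. The authors' annotation may differ. Named circles were, per class, the 8 highest that passed the filter (all 11 in the no_single_host class), the 3 largest rises and 3 largest falls called in both sexes, circles called between the sexes, and the 3 highest of each locus with at least 5 members. The members, lists and tests were chosen with earlier results of these data known, and the Tpst and CG8736 circles among others were described after their values were seen. Where a group stood at 0, a floor of 3 reads over the group gave a lower bound, which covers counting error only.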

Additional observations from a re-analysis of the deposited data

How the results depend on the processing

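Scaling to total circRNA reads moved most counts. In males of day 50 against day 0, 19 ambiguous circles were then called higher, and 13 intergenic circles higher and 19 lower. In females the numbers were 24, 12 and 19. In males of day 10 against day 0, 14 members were called higher and 19 lower, and in females 19 lower. Between day 50 and day 10 they were 9 higher and 8 lower in males and 12 and 11 in females. On that scale 19 log2 fold changes of named circles had the opposite sign, by construction of the scale: chr2R:13180990-13183212 (female -0.050), chrX:22985305-22986568 (male -0.70, female -0.63), chrX:22984596-22986568 (-0.19 and -0.27), the Y scaffold circle (-0.94 and -1.38), chr3R:19886301-19886520 (-0.15 and -0.83), chr3R:19886301-19886470 (female -1.16), chr2R:11895058-11895114 (-1.65 and -1.61), chr3L:19423379-19487106 (female -1.70), chr3L:19477907-19487106 (-1.64 and -1.58), chr2L:20881987-20882464 (-0.95 and -1.07) and chr3R:8793104-8798046 (-0.51 and -0.63).

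With no filter on level, more circles were tested: 47 intergenic circles rose and 27 fell in males of day 50, and 47 and 20 in females. At day 10, 17 members were then called higher and 21 lower in males and 25 lower in females. DESeq2 called fewer lower: 5 intergenic circles in males and 4 in females at day 50, 4 members in males and 2 in females at day 10, and 1 in males between day 50 and day 10. EdgeR, with either set of factors, called 6 members lower in males of day 10. A pseudocount of 5 gave 1 lower in males and 9 in females between day 50 and day 10, and 2 members that differed between the sexes. That last count was 1 with edgeR under both sets of factors, with DESeq2 and with the identical female replicates kept apart. The cause of these moves was not tested.

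With 1 replicate left out at a time, the counts for day 50 against day 0 were 45 to 60 ambiguous circles higher, 18 to 23 intergenic higher and 10 to 11 lower in males, and 51 to 64, 19 to 27 and 7 to 11 in females. At day 10 they were 15 to 30 members higher and 8 to 13 lower in males, and 40 to 59 and 9 to 12 in females. Between day 50 and day 10 they were 35 to 60 and 1 to 3 in males, and 33 to 46 and 2 to 7 in females. The difference between the sexes had 0 to 0.

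Replicate numbers did not pair the samples: deviations from group means correlated with a median of -0.001 between samples of one number and sex (-0.06 to 0.189) and 0.002 between different numbers (-0.189 to 0.123). The replicate block gave 1 member called lower in males between day 50 and day 10, and moved no other count by over 1.5 times. Of 134 named results, the block left 130 with the same call. Counts with the filter cover 172 of 719 members. Shares over all circRNAs were counted only for the main limma test, with no filter and on the scale of total circRNA reads. Counts from the other fits have no background beside them.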
